A study of Mus musculus with 4 samples.

Results

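The BCL2 family regulators described here are 10 genes that control the mitochondrial route to apoptosis: the anti-apoptotic Bcl2, Bcl2l1 and Mcl1, the effectors Bax and Bak1, and the BH3-only genes Bid, Bad, Bcl2l11, Bbc3 and Pmaip1. They were found by gene name among the non-control probes of an Agilent Whole Mouse Genome array, which gave 19 of the 41174 probes, and 10 of the 27745 gene names, on 46 spots. Total RNA of 3T3-L1 cells, a mouse preadipocyte line that turns into fat cells when given an adipogenic mixture, was taken on day 2 of induction and labelled with 1 dye. The cells of all 4 conditions stood in medium with 10 µg/mL insulin, 1 µM dexamethasone, 0.5 µM IBMX and 0.1% DMSO. The conditions were DMSO alone, bilberry extract at 100 µg/mL, delphinidin at 100 nM and cyanidin at 100 nM. Each condition was measured on 1 array, so no difference between conditions has a replicate check, and no test between conditions was made. The bilberry extract is a mixture and was given by weight per volume, whereas both anthocyanidins were given at the same molar dose.

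BCL2 family proteins decide whether the outer membrane of mitochondria stays closed. Bax and Bak1 proteins form the openings through which cytochrome c leaves, the anti-apoptotic proteins bind and restrain them, and BH3-only proteins block the restraint or switch the effectors on. Cytochrome c in the cytosol assembles the apoptosome with Apaf1, which activates caspases. Confluent 3T3-L1 cells re-enter the cell cycle early after induction, before they fill with lipid. The arrays measure mRNA, whereas the activity of these proteins also depends on phosphorylation, binding and location, which were not measured.

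A level is given below as the log2 of a probe's processed signal divided by the 75th percentile of the signal on the same array. A level of 0 therefore marks a probe at that percentile, and a log2 ratio is the difference between the levels of the same probe on 2 arrays. Levels of different probes depend on probe sequence and were not compared between genes. The summed levels of marker lists given below are therefore weighted towards bright probes. The 75th percentile was a signal of 861 with DMSO, 576 under bilberry, 1009 under delphinidin and 1016 under cyanidin. Between 22783 and 24949 probes were well above background on each array, a call made by the scanner software. Markers of preadipocytes and fibroblasts (9 of 9) and of adipocytes (8 of 9, all but Lep) were well above background on all 4 arrays. Ptprc, Pecam1, Cdh5, Epcam and Cdh1, which define leukocytes, endothelium and epithelium, were not well above background on any of the 4 arrays. Summed levels, in units of the array's 75th percentile, ran from 0.18 to 0.23 over the arrays for 7 leukocyte markers, from 0.035 to 0.059 for 5 endothelial, from 0.054 to 0.12 for 5 epithelial and from 0.016 to 0.070 for 4 skeletal muscle markers. In RNA from a whole dish, fewer cells of a type and less RNA per cell cannot be told apart.

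Of the 19 probes, 18 probes of 9 genes were well above background on all 4 arrays. The exception was the Pmaip1 probe (NM_021451). Pmaip1 encodes Noxa, a BH3-only protein that binds Mcl1. On all 4 arrays the scanner software had replaced its processed signal by a surrogate value (2.63 with DMSO, 2.20 with delphinidin and 2.19 with cyanidin), which is not a measured intensity, and its spot was marked as an outlier by the scanner software on the bilberry array and left out. The lowest signal called well above background was 13.01 with DMSO and 10.9 with either anthocyanidin, so Pmaip1 has only an upper bound and no ratio is given.

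**Figure D1:**
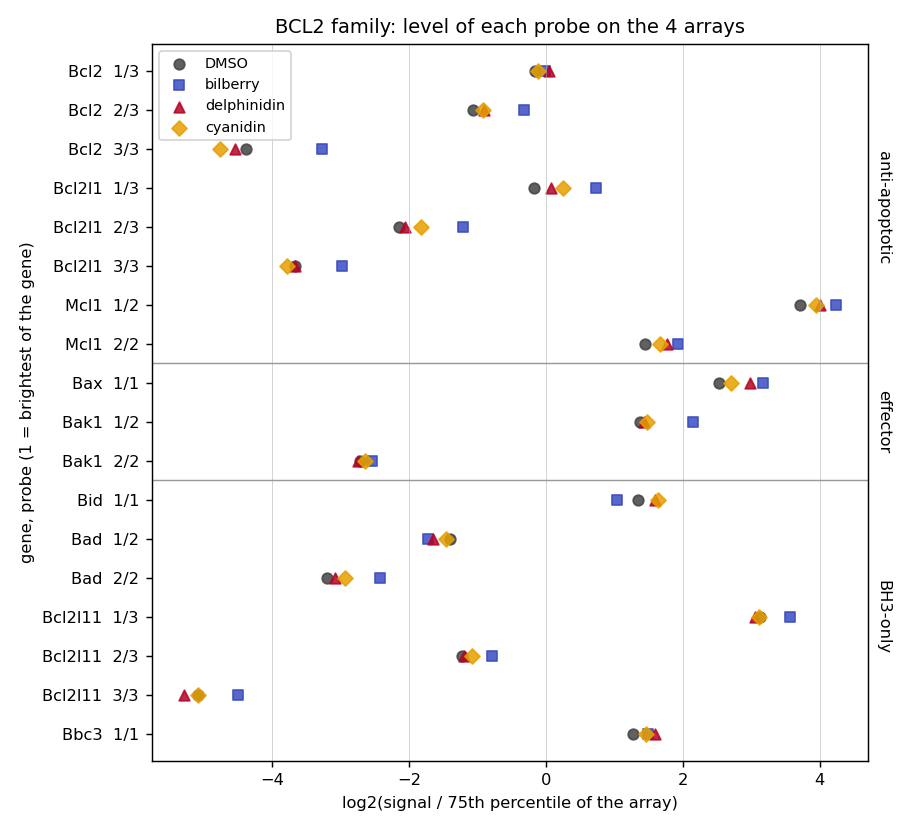
Level of each of the 18 detected BCL2 family probes on the 4 arrays. The x axis is log2 of the signal over the 75th percentile of the array, each row is a probe (1/3 is the brightest of 3 probes of a gene) and each marker is 1 array. The bilberry marker lies to the right of the DMSO marker for 16 of 18 probes, and to the left for Bid and for 1 of the 2 Bad probes.

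With bilberry extract and 75th percentile scaling, most detected probes of the BCL2 family regulators chosen here read higher than with DMSO. All but 1 of those did so by less than 2-fold. Of the 18 detected probes, 16 had a log2 ratio above 0 and 2 below, where 59.7% of all 21948 probes well above background on both arrays were above 0. The median log2 ratio of the 18 probes was 0.56 (range -0.32 to 1.11), beside 0.14 for all probes (quartiles -0.30 and 0.48). All 8 anti-apoptotic probes (median 0.71) and all 3 effector probes (median 0.64) were above 0, as were 5 of 7 BH3-only probes (median 0.44). Several probes read the same gene, so these counts are not independent. The anti-apoptotic probes read 3 genes and the effector probes 2. By the brightest probe of each gene, 7 of 9 detected members were above 0 (median 0.44), beside 9114 of all 14821 genes. Of 7 other detected BCL2 family genes, 2 were above 0 (median -0.14). The direction of the bilberry ratios depends on how the arrays are scaled. With scaling to the spike-in control spots all 18 ratios were below 0 (median -0.97), as was the median of all probes (-1.39). That scaling moves all probes alike, so the number above the median of all probes, 16 of 18, could not change. With normexp, a model-based background correction, 14 ratios were above 0 and 10 above the median of all probes, and with normexp refitted without spots marked for uneven background 16 were above 0.

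Past 2-fold higher with bilberry stood 1 of 18 member probes, beside 4.3% of all probes. None stood past 2-fold lower, beside 6.93% of all probes. At 1.5-fold, 8 of 18 member probes, from Bcl2, Bcl2l1, Bax, Bak1 and Bad, were higher, beside 18.4% of all probes, and 0 were lower, beside 14.8%. Adipocyte markers differed on the same array. Their summed level, in units of the array's 75th percentile, was 395 with DMSO, 271 under bilberry, 431.5 under delphinidin and 474 under cyanidin, and the sum of the preadipocyte and fibroblast markers was 954, 1037, 873 and 826 in the same order. In the first list, Fabp4 had a log2 level of 8.05 with DMSO and 7.10 with bilberry, while 3 of the 8 detected adipocyte markers had a bilberry ratio above 0 (Plin1, Cidec and Lpl), the median was -0.65, and Slc2a4 (-1.54), Retn (-1.08) and Adipoq (-1.07) were past 2-fold lower. In the second list, 3 of 9 ratios were above 0 (Col1a1, Col1a2 and Dlk1), the median was -0.10, and Thy1 (-1.20) was past 2-fold lower. Of 6 listed adipogenic transcription factors, 5 were measured (Cebpb, Cebpd, Cebpa, Pparg and Klf5). All 5 had a bilberry ratio above 0, with a median of 0.50. Their summed level was 268 with DMSO, 358 under bilberry, 251 under delphinidin and 231 under cyanidin. The part of these marker lists in the BCL2 family values was not tested.

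With the pure anthocyanidins, the median size of the 18 ratios to DMSO was 0.19 with delphinidin and 0.16 with cyanidin, beside 0.56 with bilberry, and the difference from bilberry was not tested. Over all probes the median size was 0.20, 0.21 and 0.41 in the same order. Bbc3 and the 10-spot Bcl2 probe had larger ratios with delphinidin (0.32 and 0.21) than with bilberry (0.22 and 0.15). Delphinidin gave 12 ratios above 0 and 6 below, with a median of 0.10 (range -0.24 to 0.45) beside -0.04 for all probes, of which 44.6% were above 0. Cyanidin gave 13 above 0 and 5 below, with a median of 0.15 (range -0.38 to 0.42) beside -0.02 for all probes, of which 47.4% were above 0. None of the 18 member probes passed 2-fold or 1.5-fold in either direction with delphinidin, where 1.08% of all 23374 probes were past 2-fold higher, 1.84% past 2-fold lower, 3.96% past 1.5-fold higher and 7.02% past 1.5-fold lower. None did with cyanidin either, where the shares of all 23198 probes were 0.595%, 2.23%, 2.97% and 8.47% in the same order. Scaling to the spike-in spots moved all probes alike: it put the medians of all probes at 0.22 with either treatment, and 18 of 18 delphinidin and 17 of 18 cyanidin ratios above 0, beside 76.3% and 73.8% of all probes. The member probes above the median of all probes numbered 14 and 15, as with 75th percentile scaling. The 3 sets of ratios share the DMSO array, so a deviation of that array would enter all of them.

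**Figure D2:**
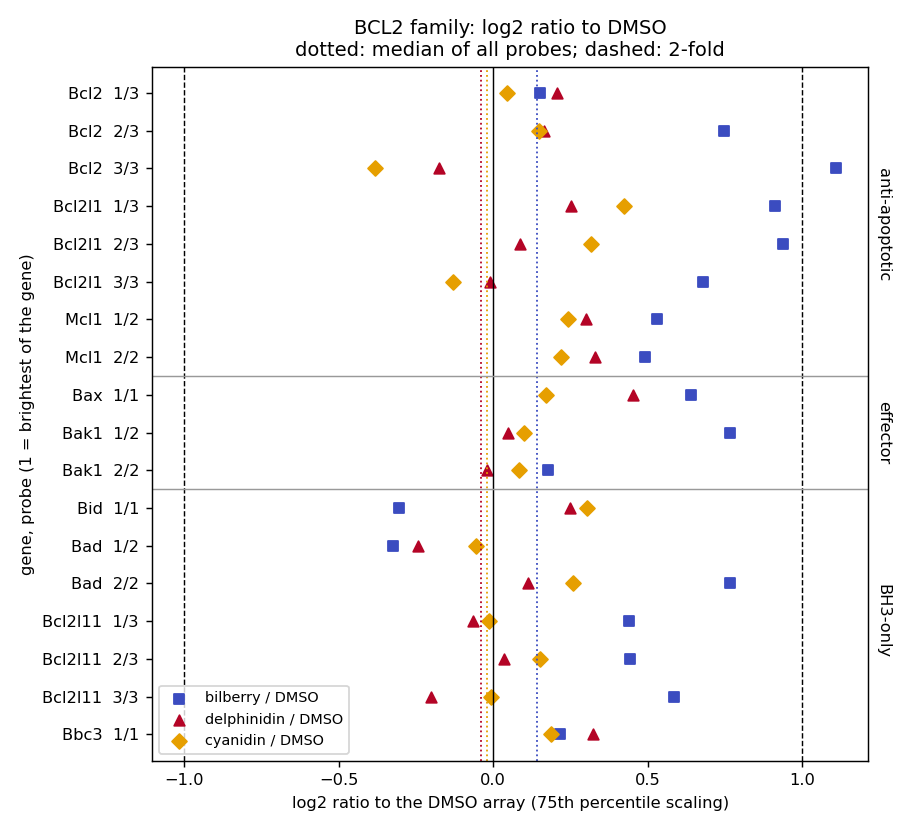
Log2 ratio to the DMSO array of the 18 detected probes after 75th percentile scaling, with 1 marker for each treatment, a dotted line in the treatment's colour at the median of all detected probes and dashed lines at 2-fold. One bilberry marker, for a dim Bcl2 probe at 1.11, lies outside the dashed lines, and the delphinidin and cyanidin markers lie between -0.38 and 0.45; scaling to spike-in spots puts all 18 bilberry values below 0.

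The probes of Bcl2, Bcl2l1 and Bax that are spotted 10 times on each array carry the most precise values of the family, since the spots of a probe show the measurement error within an array. The promoters of these 3 genes are therefore shown, as the 250 bases before a RefSeq transcript start on GRCm38.p6, 5′ to 3′ on the strand of the gene. Capitals mark matches on either strand to the GC box GGGCGG, the cAMP response core TGACG and the xenobiotic response core GCGTG, and matches may overlap one another. For Bcl2l1, the most upstream of 3 starts is shown.
Bcl2, chr1:106714291-106714540, minus strand: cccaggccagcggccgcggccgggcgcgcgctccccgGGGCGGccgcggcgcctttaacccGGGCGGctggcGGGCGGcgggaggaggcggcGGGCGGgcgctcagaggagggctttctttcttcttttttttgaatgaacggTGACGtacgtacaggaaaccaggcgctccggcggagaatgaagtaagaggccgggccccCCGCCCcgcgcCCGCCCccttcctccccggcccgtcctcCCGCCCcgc
Bcl2l1, chr2:152831729-152831978, minus strand: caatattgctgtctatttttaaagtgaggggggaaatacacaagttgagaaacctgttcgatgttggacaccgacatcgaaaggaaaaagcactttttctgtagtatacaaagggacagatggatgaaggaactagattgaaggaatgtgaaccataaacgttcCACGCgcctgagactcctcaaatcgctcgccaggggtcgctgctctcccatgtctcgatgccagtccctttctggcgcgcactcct
Bax, chr7:45466899-45467148, minus strand: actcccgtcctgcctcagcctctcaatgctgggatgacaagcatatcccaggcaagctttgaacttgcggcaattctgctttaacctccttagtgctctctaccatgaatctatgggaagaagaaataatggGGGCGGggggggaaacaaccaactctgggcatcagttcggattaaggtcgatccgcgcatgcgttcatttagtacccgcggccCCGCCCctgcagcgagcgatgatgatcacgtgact

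The Bcl2 window held 7 GC boxes, between 213 and 9 bases before the start, and a cAMP response core 107 bases before it. The Bax window held 2 GC boxes, 118 and 35 bases before the start. The Bcl2l1 window held none and had 1 xenobiotic response core 86 bases before the start. Over the 15 windows of the 9 detected members, 10 windows (7 genes) held a GC box, 2 windows (Bbc3 and Bcl2) TGACG and 7 windows (Bad, Bbc3, Bcl2l1 and Bcl2l11) GCGTG. The shares of all 32851 windows of this length with a match were 32.7%, 17.8% and 28.2%. The antioxidant response core TGACNNNGC was in 1 window (another start of Bcl2l1), beside 10.2% of all windows, and the forkhead site GTAAACA was in 2 (Bcl2l11 and Bbc3), beside 3.17%. The p53 response element was in 0 of the 15 windows and in 0.0639% of all windows. A match describes the letters of a window and does not show binding.

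Bcl2l1, which encodes the anti-apoptotic BCL-XL, had the widest range over the 4 arrays among the probes spotted 10 times. This probe (NM_009743, mm8 chr2:152472336-152472395) had a level of -0.18 with DMSO, 0.74 under bilberry, 0.08 under delphinidin and 0.24 under cyanidin. DMSO was lowest and bilberry highest, and the spots of the 4 arrays did not overlap: they ran from -0.24 to -0.13, from 0.63 to 0.81, from 0.02 to 0.11 and from 0.16 to 0.35. The bilberry level was 1.88-fold that of DMSO (log2 ratio 0.91, spot SE 0.023). With delphinidin the log2 ratio was 0.25 (spot SE 0.019) and with cyanidin 0.42 (spot SE 0.024). These SEs cover the spots of an array and not the spread between cultures. A second Bcl2l1 probe (mm8 chr2:152520890-152520949) read -2.15, -1.22, -2.06 and -1.84 in the same order, and another (mm8 chr2:152521435-152521494) read -3.66, -2.98, -3.67 and -3.79. With 75th percentile scaling all 3 probes were higher with bilberry, by 0.68 to 0.94 on the log2 scale, but the cyanidin ratio ran from -0.13 to 0.42 among them. The bilberry ratios with normexp before the refit were 0.66, 1.29 and 1.76 from the brightest to the dimmest probe, with the refit 0.85, 0.82 and 0.59, and with spike-in scaling -0.61, -0.59 and -0.85.

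Bcl2, the founding anti-apoptotic gene, had smaller ratios on its 10-spot probe. That probe (NM_009741, mm8 chr1:108365763-108365822) read -0.16 with DMSO, -0.01 under bilberry, 0.04 under delphinidin and -0.12 under cyanidin, and 9 spots were used on each array. Cyanidin spots overlapped those of DMSO, and delphinidin spots overlapped those of bilberry. At matched spot positions the bilberry ratio was above 0 at 9 of 9 positions (0.12 to 0.18), the delphinidin ratio at 9 of 9 (0.17 to 0.25) and the cyanidin ratio at 8 of 9 (-0.02 to 0.08). Other Bcl2 probes gave other sizes. The probe for NM_177410 (mm8 chr1:108539940-108539999), the shorter isoform record, read -1.08, -0.33, -0.91 and -0.93, which puts bilberry 1.68-fold above DMSO and the anthocyanidins within 0.17 of DMSO on the log2 scale.

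With 75th percentile scaling, the only member probe past 2-fold was the third Bcl2 probe (AK077913, mm8 chr1:108538280-108538339), with levels of -4.38, -3.27, -4.55 and -4.76. It was dim: its processed signal was 41.4 with DMSO, 59.8 under bilberry, 43.0 under delphinidin and 37.4 under cyanidin. The log2 ratio with bilberry was 1.11, and those with delphinidin and cyanidin were -0.17 and -0.38. The bilberry ratio was 2.04 with normexp before the refit, 0.76 with the refit, where it no longer passed 2-fold, and -0.42 with spike-in scaling. The lowest level called well above background was itself -6.05 on the DMSO array and -5.47 on the bilberry array, and its part in the values of dim probes was not tested. With the probes of a gene averaged, 0 members were past 2-fold with bilberry.

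Mcl1, a short-lived anti-apoptotic protein that restrains Bak1, was read by 2 probes (NM_008562) that gave similar ratios. At mm8 chr3:95748337-95748396 the levels were 3.70 with DMSO, 4.23 under bilberry, 4.00 under delphinidin and 3.95 under cyanidin. At mm8 chr3:95747025-95747084 they were 1.44, 1.93, 1.77 and 1.66. Both probes put the arrays in the same order, with log2 ratios to DMSO of 0.53 and 0.49 for bilberry, 0.30 and 0.33 for delphinidin, and 0.24 and 0.22 for cyanidin. With normexp background correction before its refit the bilberry ratios were -0.08 and 0.02. With 75th percentile scaling the Mcl1 probes had the same sign in every comparison.

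Bax, the effector that moves from the cytosol to mitochondria, was read by 1 probe with 10 spots (NM_007527, mm8 chr7:45334141-45334296). Its level was 2.52 with DMSO, 3.16 under bilberry, 2.98 under delphinidin and 2.70 under cyanidin. The spots ran from 2.49 to 2.56, from 3.09 to 3.21, from 2.95 to 3.01 and from 2.64 to 2.74, so that no 2 arrays overlapped and DMSO was lowest. The log2 ratio was 0.64 (1.56-fold, spot SE 0.015) under bilberry, 0.45 (1.37-fold, spot SE 0.011) under delphinidin and 0.17 (1.13-fold, spot SE 0.014) under cyanidin. With normexp before the refit the bilberry ratio was 0.05, and with the refit it was 0.56.

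**Figure D3:**
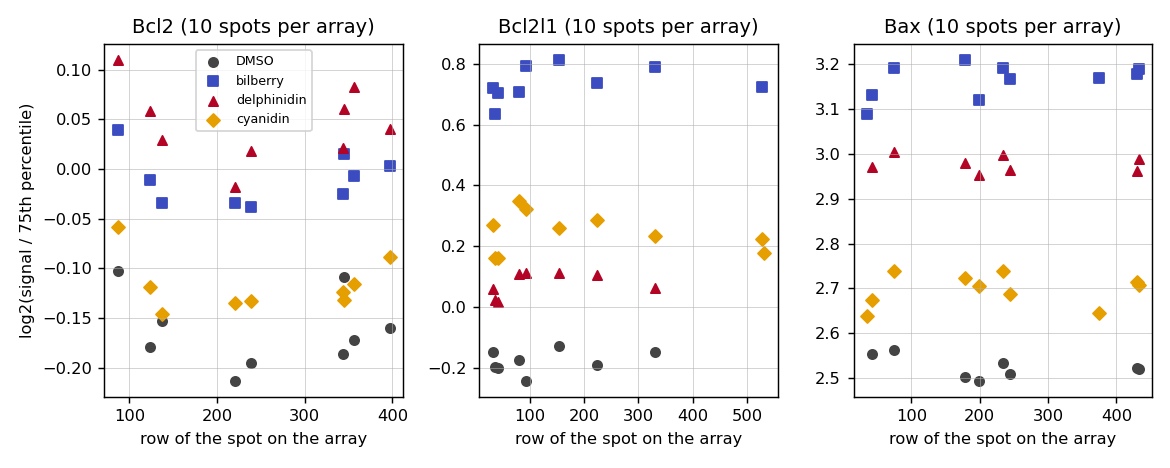
Level (log2 of signal over the 75th percentile) of every kept spot of the 3 probes spotted 10 times, for Bcl2, Bcl2l1 and Bax, by the row of the spot on the array, with 1 marker type for each array and a separate y axis for each gene. For Bcl2l1 the order from the bottom is DMSO, delphinidin, cyanidin and bilberry, for Bax it is DMSO, cyanidin, delphinidin and bilberry, and for Bcl2 the DMSO spots overlap those of cyanidin and the bilberry spots those of delphinidin.

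Bak1, the effector that resides in the mitochondrial membrane, differed between its probes. The probe at mm8 chr17:26747611-26747670 (NM_007523) read 1.38 with DMSO, 2.14 under bilberry, 1.42 under delphinidin and 1.48 under cyanidin. Bilberry stood apart from the other arrays there, at 1.70-fold the DMSO level. The dimmer probe at mm8 chr17:26748876-26748935 read -2.73, -2.55, -2.74 and -2.64, a bilberry ratio of 0.18, close to the median of all probes. With normexp before the refit the bilberry ratio was 0.27 for the brighter and 1.25 for the dimmer probe, and with the refit 0.70 and 0.24.

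Among the BH3-only genes, Bid read lower with bilberry than with DMSO. Bid, which caspase-8 cleaves to link death receptors to mitochondria, was read by 1 probe (NM_007544, mm8 chr6:120859065-120859124) at 1.34 with DMSO, 1.03 under bilberry, 1.59 under delphinidin and 1.64 under cyanidin. The log2 ratio was -0.31 with bilberry, and 0.25 and 0.30 with delphinidin and cyanidin. The bilberry ratio was -0.60 with normexp before the refit, and with spike-in scaling, where all 18 member ratios with bilberry were below 0, it was -1.83. Its bilberry log2 ratio minus that of the 10-spot Bcl2l1 probe was -1.22, and minus that of Bax it was -0.94, values that do not depend on the factor by which an array is scaled. With normexp background correction they were -1.26 and -0.65, and with quantile normalization -1.29 and -0.85.

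Bad, a BH3-only protein that is kept inactive by phosphorylation after growth factor and insulin signalling, was read by 2 probes whose bilberry ratios had opposite signs after 75th percentile scaling. The probe for NM_007522 (mm8 chr19:7009172-7009231, plus strand) read -3.20 with DMSO, -2.43 under bilberry, -3.09 under delphinidin and -2.94 under cyanidin. That named Bad for the cDNA record AK029400 (mm8 chr19:7018148-7018207) read -1.41, -1.73, -1.65 and -1.47. With bilberry the first stood at 1.70-fold the DMSO level and the second at 0.80-fold, a spread of 1.09 on the log2 scale and the widest between probes of a member in any comparison. With normexp before the refit both bilberry ratios were above 0, at 1.65 and 0.45, and with the refit they were 0.65 and -0.20. The files place the AK029400 probe on the minus strand, opposite to the NM_007522 probe and to the strand of Bad in RefSeq, and whether it reads Bad mRNA was not tested.

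Bcl2l11 encodes Bim, which binds all the anti-apoptotic proteins and can activate Bax. Its brightest probe (NM_207680, mm8 chr2:127853756-127853815) read 3.12 with DMSO, 3.56 under bilberry, 3.05 under delphinidin and 3.11 under cyanidin. A probe whose interval runs over mm8 chr2:127838598-127849693 read -1.23, -0.79, -1.20 and -1.08, and the probe for BC058175 (mm8 chr2:127820441-127821122) read -5.09, -4.50, -5.29 and -5.09. With bilberry all 3 were higher than DMSO, by 0.44, 0.44 and 0.58, while with delphinidin and cyanidin they lay between -0.20 and 0.15. Bbc3 encodes Puma, a BH3-only protein and p53 target. Its probe (NM_133234, mm8 chr7:15476576-15476635) read 1.27, 1.48, 1.59 and 1.45, so that all 3 treatments were above DMSO, by 0.22, 0.32 and 0.19. With normexp before the refit, the bilberry ratios of the brightest Bcl2l11 probe and of Bbc3 were -0.12 and -0.15. Delphinidin was the highest array for Bbc3, as it was for the 10-spot Bcl2 probe.

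Over the 6 genes with more than 1 probe, all probes of a gene had the same sign for 5 with bilberry (not Bad), for 1 with delphinidin (Mcl1) and for 2 with cyanidin (Mcl1 and Bak1). The median spread between the lowest and highest probe of a gene was 0.42, 0.25 and 0.24 on the log2 scale. With delphinidin and cyanidin that spread was larger than the median size of a member's ratio, 0.19 and 0.16.

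Delphinidin and cyanidin differ by an additional hydroxyl group on the B ring of delphinidin. They were compared at the same dose and day, as 1 pair of arrays without replicates, so the interval of a difference between cultures cannot be given. No member probe differed between them by 1.5-fold or 2-fold, where 4.4% and 1.16% of all 23715 probes did in either direction. The median log2 ratio of delphinidin over cyanidin was -0.05 (range -0.23 to 0.28), with 8 probes above 0 and 10 below, beside -0.01 for all probes, of which 46.9% were above 0. By role, 6 of 8 anti-apoptotic probes, 1 of 3 effector probes and 1 of 7 BH3-only probes were higher with delphinidin. Probes of a gene are not independent: the 8 anti-apoptotic probes read 3 genes and the 7 BH3-only probes 4 genes. These signs were the same under each of the other scalings tried.

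Between the anthocyanidins, the Bax probe was higher with delphinidin and 2 of the 3 Bcl2l1 probes were lower. Bax was higher with delphinidin by 0.28 (spot SE 0.013), at 8 of 8 matched spot positions (0.25 to 0.30). The 10-spot Bcl2l1 probe was lower with delphinidin, with a log2 ratio of -0.17 (spot SE 0.025), at 8 of 8 positions (-0.24 to -0.14), and its other probes gave -0.23 and 0.12. The difference between the ratios of Bax and the 10-spot Bcl2l1 probe was therefore 0.45 (spot SE 0.028) for delphinidin over cyanidin, and it lay between 0.41 and 0.45 under the other corrections. Against DMSO this difference was -0.27 under bilberry (-0.61 with normexp before the refit), 0.20 under delphinidin and -0.25 under cyanidin. It depends on the Bcl2l1 probe: beside the cyanidin ratio of 0.17 for Bax, the Bcl2l1 probes gave 0.42, 0.32 and -0.13, so the sign turned with the last of them. The spread between the Bcl2l1 probes was 0.35 for delphinidin over cyanidin and 0.55 for cyanidin over DMSO, and the spot SEs do not cover it.

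**Figure D4:**
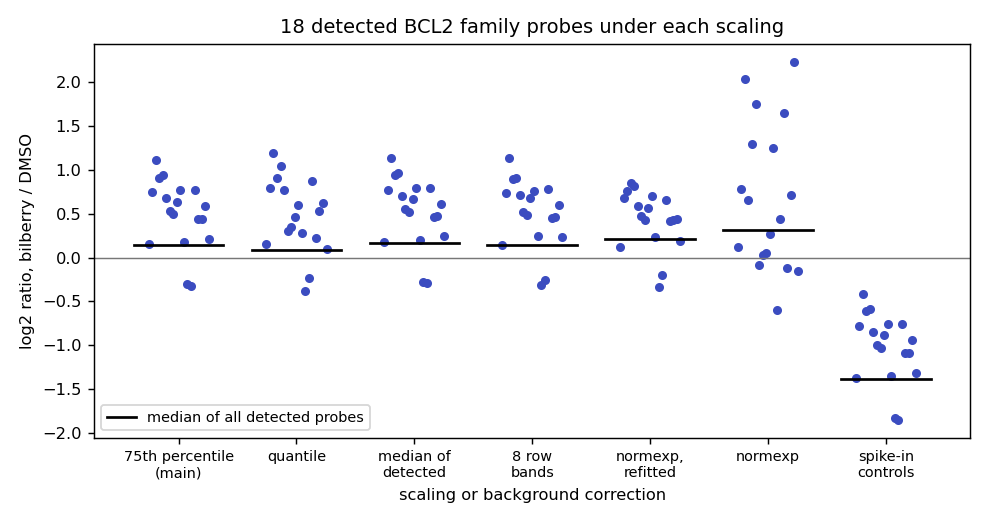
Log2 ratio of bilberry over DMSO for the 18 detected probes (points) and the median of all detected probes (black lines) under 7 ways of scaling or correcting the arrays. The points lie mostly above 0 with 75th percentile scaling (16 of 18), spread from -0.60 to 2.23 with normexp before the refit and lie between -1.85 and -0.42 with spike-in scaling.

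The rest of the pathway was read from lists written by hand, with each gene represented by its brightest probe and counted where it was well above background on both arrays. The counts and ratios of these lists are those of 75th percentile scaling unless another is named. With spike-in scaling, 19 of 14821 genes were past 2-fold higher with bilberry and 11375 lower. Under that scaling no gene of the 5 lists described here was past 2-fold higher with bilberry. Past 2-fold lower were 7 of 7 other BCL2 family genes, 16 of 22 genes of the apoptosome list and 10 of 12 of the death receptor branch. So were 13 of 22 genes of the p53 list and 22 of 30 kinases and factors. With normexp before the refit, 4115 of the 14821 genes were past 2-fold higher with bilberry and 617 lower, and with the refit 346 and 503. With 75th percentile scaling, over all genes so counted, 698 of 14821 were past 2-fold higher with bilberry and 987 lower, 186 and 323 of 15660 with delphinidin, and 105 and 370 of 15562 with cyanidin. The medians of all genes were 0.17, -0.05 and -0.02. None of the 7 measured of the 12 other BCL2 family genes with a probe passed 2-fold in any treatment, and their medians were -0.14, -0.16 and -0.20. Nearest to 2-fold was Bcl2l2, which encodes the anti-apoptotic BCL-W, at -0.84 under bilberry, -0.43 under delphinidin and -0.26 under cyanidin. Bmf, a BH3-only gene, was nearest with delphinidin, at -0.34, -0.64 and -0.47 in the same order. With cyanidin it was Bcl2l12, at -0.14, -0.45 and -0.52. With normexp before the refit, 1 of these 7 genes was past 2-fold higher with bilberry and 2 were lower, and with the refit 0 passed.

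Downstream of the mitochondria, 1 of 22 measured genes of the apoptosome, caspases and their inhibitors was past 2-fold lower with bilberry and 0 higher, and 0 passed with either anthocyanidin, with medians of 0.22, 0.06 and -0.02. The gene was Dffb, the nuclease that cuts DNA in apoptosis, at -1.89 under bilberry, -0.32 under delphinidin and -0.16 under cyanidin. The Dffb level was -3.36 with DMSO and -5.25 with bilberry, where the lowest level called well above background was -5.47. The bilberry ratio of Dffb was 1.47 with normexp before the refit and -0.37 with the refit. With normexp before the refit, 2 of the 22 genes were past 2-fold higher with bilberry and 1 was lower, and with the refit 0 passed. Cycs, cytochrome c itself, is named here after its values were seen. Its log2 ratios were 0.63, 0.70 and 0.74, all under 2-fold, and that with bilberry was -0.01 with normexp before the refit and -0.90 with spike-in scaling. In the death receptor branch, Fas, the receptor of Fas ligand, was the 1 gene of 12 past 2-fold, at -1.22 under bilberry, -0.55 under delphinidin and -0.17 under cyanidin. The medians of that branch were 0.36, -0.11 and -0.04. With normexp before the refit, 1 of its 12 genes was past 2-fold higher with bilberry and 2 were lower, and with the refit 0 and 1.

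Of p53 and its targets, 22 were measured, with medians of 0.43, 0.20 and 0.18. Past 2-fold higher were Sesn2, a stress-induced inhibitor of mTORC1 signalling, with bilberry (1.18, 0.51 and 0.43 over the treatments), Tigar, a regulator of glycolysis, with delphinidin (0.79, 1.10 and 0.27), and Eda2r, a TNF receptor family member, with cyanidin (0.99, 0.86 and 1.05). With spike-in scaling Sesn2 was at -0.35 with bilberry, and with normexp before the refit it was at 0.57. With normexp, Tigar with delphinidin (0.72) and Eda2r with cyanidin (0.89) were under 2-fold. Fas, which is also in this list, was the 1 gene past 2-fold lower. With normexp before the refit, 5 of the 22 genes were past 2-fold higher with bilberry and 1 was lower. The bilberry median of this list was then 0.16, and with spike-in scaling it was -1.10. Among 30 measured kinases and factors that act on BCL2 family genes or proteins, 3 were past 2-fold higher with bilberry and 0 lower, 0 passed with either anthocyanidin, and the medians were 0.20, 0.03 and 0.00. They were E2f1, a cell cycle transcription factor, at 1.24 (0.61 and 0.38 with delphinidin and cyanidin), Trib3, a stress-induced pseudokinase that binds Akt, at 1.13 (0.62 and 0.57), and Trp73, a p53 relative, at 1.03 (-0.05 and -0.14). With spike-in scaling their bilberry ratios were -0.29, -0.40 and -0.50, and with normexp before the refit 0.77, 0.81 and 1.54. With the refit Trp73 was at 0.86, under 2-fold.

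The genes whose 3 log2 ratios to DMSO were nearest to those of the 10-spot Bcl2l1 probe, by Euclidean distance over 14730 genes well above background on all 4 arrays, were Ppp1r13b (distance 0.018), B630019K06Rik (0.023), Ccny (0.025), Alg12 (0.044) and Aar2 (0.046). Ppp1r13b was at 0.91, 0.27 and 0.43 under bilberry, delphinidin and cyanidin. These 3 ratios rest on 4 arrays and share the DMSO array.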

How the data were processed

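The authors labelled total RNA with Cy3, hybridized 1 array per condition and deposited the output of Agilent's Feature Extraction software, in which the processed signal is an intensity after subtraction of local background, or a surrogate value set by the software for dim spots (25.2% to 30.0% of non-control spots on an array, and 0 of the 45 spots of detected members). A deposited table of the series holds the same intensity values (largest relative difference 0). These values do not yet hold the division by the 75th percentile named in the methods.

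The processed signal was divided by the 75th percentile over the 43379 non-control spots of its array and converted to log2. Spots marked by the software for uneven or outlying signal or background were not used (701 to 875 on an array), and the remaining spots of each probe were averaged. A probe counted as detected when most of its kept spots were called well above background, and ratios were counted at 2-fold. The median SD of the spots of a probe over 142 detected probes spotted 10 times was 0.030 to 0.038 on the log2 scale. No depth applies to arrays, and their number limits the precision. With 1 array per condition, p-values were not computed. Probe positions are given on mm8, as in the files. Promoters and current names come from RefSeq tables of GRCm38.p6, in which 24375 probes matched by accession. Alternatives were normexp background correction (limma 3.58.1 in R 4.3.3, offset 50), the same refitted without spots marked for background, quantile normalization, scaling to detected probes or spike-in spots, control spots included in the percentile, centring in 8 bands of rows, the deposited table, marked spots kept, 1.5-fold, no detection filter, and probes averaged per gene. Scripts ran in Python 3.11.15 and were tested on simulated data.

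The genes and lists were chosen with earlier results of these data known. Named genes are all members with every probe, genes of the pathway lists detected on both arrays and past 2-fold in a treatment, the nearest of such a list where none passed, and the 5 genes nearest in pattern to the member with the widest range, taken by its brightest probe. Cell type markers and Cycs fall outside this rule, and those printed were picked after their values were seen. Levels of RNA by RT-PCR, and proteins, are not analysed here.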

Additional observations from a re-analysis of the deposited data

How the results depend on the processing

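The number of member probes past 2-fold with bilberry in either direction, 1 in the values above, was 6 of 18 with normexp background correction (35.2% of all probes), 0 when that correction was refitted without spots marked for background (5.32%), 2 with quantile normalization (11.5%), 8 with spike-in scaling (all lower, as were 77.9% of all probes), 8 at 1.5-fold (all higher, as were 18.4%) and 0 with the probes of a gene averaged (10.6% of genes). The median bilberry ratio of 0.56 was 0.46 with refitted normexp, 0.50 with quantile normalization, -0.97 with spike-in scaling and 0.49 with probes averaged. The median delphinidin ratio of 0.10 was 0.19 with quantile normalization and 0.36 with spike-in scaling, and the median cyanidin ratio of 0.15 was 0.39 with spike-in scaling. The one call past 2-fold, the Bcl2 probe for AK077913, was reversed to -0.42 with spike-in scaling. The spike-in spots were 0.95 brighter in the median (log2) on the bilberry than on the DMSO array, while the 75th percentile differed by -0.58 (log2), and the cause was not tested. With normexp before the refit, 4 of 18 bilberry ratios were below 0 and 10 of 18 above the all-probe median. Counts for delphinidin, cyanidin and their comparison stayed at 0 under the alternatives run. No paired analysis was possible because each condition has 1 array. The bilberry ratio of the Bcl2l11 probe for BC058175, 0.58 above, was 2.23 with normexp and 0.44 with its refit, and the cause was not tested.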
